A study of Mus musculus with 9 samples.

Results

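The transcription factor gene *Spi1*, which encodes PU.1, and 9 further ETS family genes of blood cells were followed across 3 mouse myeloid cell lines. The 10 genes were *Spi1*, *Spib*, *Spic*, *Fli1*, *Erg*, *Ets1*, *Ets2*, *Elf1*, *Elf4* and *Etv6*, chosen by name from a table of 54347 genes. Of these, 8 had enough counts to be tested, while *Spib* and *Spic* did not. The progenitor lines Hox-WT and Hox-URE were each grown from lineage-negative c-Kit+ bone marrow cells immortalized with a Hoxb8-ER fusion protein that works only in the presence of estradiol. Hox-WT is wild-type, and Hox-URE is homozygous for deletion of the upstream regulatory element (URE), the main distal enhancer of *Spi1*. URE-AML, labelled B22, is a line of acute myeloid leukemia blasts from a leukemic mouse with the same homozygous deletion. Cells of all 3 lines grew with IL-3, IL-6, SCF and β-estradiol, so no comparison bears on those agents. The study's reagent list takes Hox-WT from an earlier publication, while Hox-URE and URE-AML were made in-house and first reported there. Each genotype or stage is 1 line, so that every difference below is a difference between lines. Poly-A RNA was sequenced from 3 libraries per line. Nothing states that they came from separate cultures, so p-values measure the spread between these libraries, which may be technical.

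ETS factors share a DNA-binding domain that recognizes a GGAA core, and the bases around that core and the partner proteins set which member binds where. PU.1 is the master regulator of myeloid and B cell genes and acts by dose, since high levels favor macrophages and low levels favor neutrophils. ERG and FLI1 maintain stem cells and megakaryocytes, ETS1 acts in lymphocytes, and ETV6 (TEL) is a repressor that hematopoietic stem cells need.

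Total counts per library ran from 20331064 to 28588718, and a count of 3 stood at 0.104 to 0.153 CPM (counts scaled to a fixed library size, from the library total and its TMM factor). All 8 progenitor markers were above 3 counts in both Hox lines, but 7 of them were lower in Hox-URE than Hox-WT and 0 higher (median log2 -2.12), among them *Kit*, the SCF receptor gene, at 43 CPM against 175 CPM. Of 7 tested monocyte and macrophage markers 5 were lower and 1, *Ccr2*, higher in Hox-URE than Hox-WT. The sum over that list went the other way, at 841.9 to 943.7 CPM in Hox-URE and 347.6 to 436.5 CPM in Hox-WT. It was 173.4 to 343.3 CPM in URE-AML. The eighth progenitor marker, *Ctsg* (cathepsin G), was at 3325 CPM in Hox-URE against 1993 CPM in Hox-WT. It was not called, but it was called higher in 8 of 19 alternatives. Among them were those without Hox-URE library 1 (log2 0.90) or without URE-AML library 1 or 3 (both 0.74). In URE-AML 3 of the 8 progenitor markers were higher and 5 lower than in Hox-WT. *Elane* and *Prtn3*, neutrophil granule protease genes, were among the higher ones, *Prtn3* at 1083 CPM against 588 CPM. *Ctsg* was the third, and its call there was lost without Hox-WT library 1 or 2 or URE-AML library 2 or 3 (log2 0.60 to 0.93). *Flt3* was at 0 and *Cd34* at 1 count over the 3 libraries, and *Hoxb8* was at 0. *Ptprc*, which encodes the pan-leukocyte protein CD45, had 4053, 4753 and 4399 counts in Hox-WT, 0 in every Hox-URE library and 1, 0 and 1 in URE-AML. Markers of more mature cells also differed between lines. The summed level of 9 mature neutrophil markers was 4188 to 9088 CPM in URE-AML, 59.8 to 109 CPM in Hox-WT and 118 to 184 CPM in Hox-URE. Of 8 tested, 6 were lower and 1 higher in Hox-URE than Hox-WT. The higher one, the lipocalin gene *Lcn2*, made up most of the sum there, at 110 to 174 CPM against 6.45 to 9.13 CPM. In Hox-URE 5 of the 9 were at or under 3 counts, with *Ltf* and *S100a9* at 0. That of 8 basophil and mast cell markers was 1613 to 5892 CPM in Hox-URE, 483 to 838 CPM in Hox-WT and 31.4 to 62.8 CPM in URE-AML, with *Fcer1a* at 0 in both Hox lines. Hox-URE library 1 stood apart from the other two. The chi-square per degree of freedom of its counts was 67.6 against library 2 and 99.8 against library 3, while those libraries gave 26.8 between them, and it held the lowest basophil and mast cell sum, with *Cpa3*, a mast cell protease gene, at 768, 2789 and 4437 CPM in libraries 1 to 3. Without that library, 2 ETS members, 4 other ETS family genes and 19 PU.1 target genes were called in Hox-URE against Hox-WT, in place of 3, 4 and 18. Over all genes 5235 were called, in place of 4873. These marker levels move with every result below, and their part in it was not tested. In such bulk libraries, fewer expressing cells and less RNA per cell cannot be told apart.

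The set of RefSeq start site windows used here (GRCm38.p6) covered 7 of the 10 genes. It held 11 windows of 300 bases for them, with 250 before the start and 50 after it. It held none for *Spi1*, *Fli1* and *Ets1*, whose starts were thus not searched. The GGAA core, read on both strands as GGAA or TTCC, was present in each of the 11 windows and in 96% of all 32851 windows. In 1 window each of *Erg* and *Elf1* it lay only in the 50 bases after the start. None of the 11 held the PU.1-type sequence GAGGAAGT, the class I sequence CCGGAAGT that most other ETS factors prefer, or the RUNX sequence TGTGGT, each also read on both strands. The first 2 of these contain the core. Over all windows they occurred in 3.2%, 3.89% and 16.8%. These letter matches describe the windows and do not mark binding. The 250 bases before the start are shown for *Elf4*, which was higher in both lines with the deletion, for *Erg*, which was lower in the leukemic line, and for *Etv6*, which was called in no comparison. Capitals mark GGAA or TTCC, and each sequence is written 5′ to 3′ on the strand of the gene.
*Elf4* chrX:48463133-48463382, minus strand: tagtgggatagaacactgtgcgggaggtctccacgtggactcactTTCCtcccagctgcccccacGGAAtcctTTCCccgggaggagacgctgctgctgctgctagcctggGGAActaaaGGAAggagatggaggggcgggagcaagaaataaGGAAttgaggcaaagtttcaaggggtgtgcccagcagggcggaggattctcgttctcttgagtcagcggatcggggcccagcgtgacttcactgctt
*Erg* chr16:95586594-95586843, minus strand: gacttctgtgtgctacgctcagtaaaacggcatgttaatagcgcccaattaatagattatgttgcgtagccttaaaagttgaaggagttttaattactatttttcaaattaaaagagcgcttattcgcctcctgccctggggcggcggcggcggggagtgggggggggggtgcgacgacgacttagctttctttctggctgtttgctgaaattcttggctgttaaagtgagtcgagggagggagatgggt
*Etv6* chr6:134035450-134035699, plus strand: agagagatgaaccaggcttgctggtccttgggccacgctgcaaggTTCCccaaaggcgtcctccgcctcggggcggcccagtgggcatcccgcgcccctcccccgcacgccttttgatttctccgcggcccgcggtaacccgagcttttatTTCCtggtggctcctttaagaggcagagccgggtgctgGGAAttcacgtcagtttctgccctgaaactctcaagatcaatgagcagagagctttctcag
The *Elf4* stretch held 6 cores, that of *Etv6* 3 and that of *Erg* 0. *Elf4* has another annotated start with 2 cores before it, and *Erg* has 2 others with 4 and 2.

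Genes past both an edgeR adjusted p of 0.05 and a 1.5-fold difference were called. In Hox-URE against Hox-WT, 3 of the 8 tested genes were called, *Spi1* lower and *Ets1* and *Elf4* higher. Of all 13082 tested genes 37.2% were called in that comparison, 21.3% higher and 15.9% lower. Between URE-AML and Hox-WT 7 passed, with *Fli1*, *Ets1*, *Ets2* and *Elf4* higher and *Spi1*, *Erg* and *Elf1* lower, where the share over all genes was 43.2%, with 23% higher and 20.2% lower. Between URE-AML and Hox-URE 4 passed, with *Spi1*, *Fli1* and *Ets2* higher and *Elf1* lower, where the share over all genes was 42.7%, with 20.3% higher and 22.4% lower. Over the 8 genes the median log2 fold change was -0.17, 0.34 and 0.11 in that order of comparisons, and that over all tested genes was 0.002 between URE-AML and Hox-WT and 0 otherwise. The shares over all genes also apply to each list of genes counted above and below. The 3 comparisons share their libraries and are not independent of each other.

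**Figure D1:**
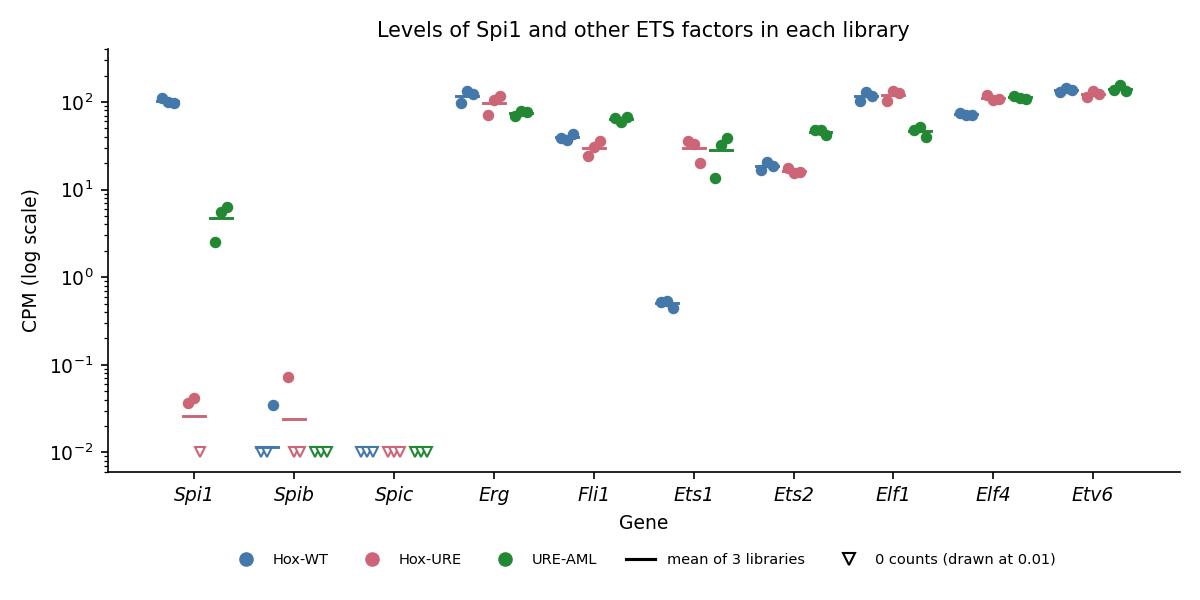
CPM on a log axis of the 10 ETS genes in each of the 9 libraries (points, colored by line), with bars at the mean of 3 libraries and open triangles at 0.01 for libraries with 0 counts. *Spi1* is high in Hox-WT only, *Ets1* is low in Hox-WT only, *Spib* and *Spic* are at or near 0 throughout, and the other genes lie between 15.5 and 154 CPM.

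*Spi1*, on the plus strand of chromosome 2 (GRCm38, 91082390 to 91115756, ENSMUSG00000002111), was nearly silent in one line with the deletion and partly expressed in the other. It had 110, 101 and 96.5 CPM in the Hox-WT libraries. Hox-URE held 1, 1 and 0 counts of it, and URE-AML had 2.5, 5.52 and 6.35 CPM, from 62, 116 and 148 counts. No range of one line overlapped that of another. With 2 counts in Hox-URE against 8555 in Hox-WT, the ratio of pooled levels was 3640 (exact 95% interval of counting error 1010 to 30100, edgeR with adjusted p = 6.56e-08). URE-AML stood at a log2 fold change of -4.42 ± 0.28 (SE) from Hox-WT (edgeR with adjusted p = 4.53e-07). URE-AML exceeded Hox-URE by a ratio of pooled levels of 168 (exact 95% interval of counting error 46.1 to 1390, edgeR with adjusted p = 4.29e-06).

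Of 15 tested genes within 250 kb, 3 were higher and 2 lower in Hox-URE than Hox-WT, where 37.2% of all genes were called. URE-AML had 6 higher and 0 lower than Hox-WT, against 23% higher and 20.2% lower over all genes. It had 5 higher and 0 lower than Hox-URE, against 20.3% and 22.4% over all genes. The neighbors called in URE-AML were thus all higher, and the reason was not tested. The nearest tested neighbor, *Slc39a13* (12 kb away, a zinc transporter gene), was at 9.38 CPM in Hox-WT, 17 CPM for Hox-URE and 19.8 CPM for URE-AML. *Nr1h3*, the gene of the oxysterol receptor LXRα at 68.3 kb on the other side, was at 0.577, 0.973 and 37.6 CPM in the same order. URE-AML exceeded Hox-WT there by 6.02 on the log2 scale (edgeR with adjusted p = 3.97e-07). The median log2 fold change of the 1033 tested genes of chromosome 2 was -0.04 for Hox-URE and 0.07 for URE-AML, both against Hox-WT.

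*Spib* (chromosome 7, 44525993 to 44532071), the B cell and plasmacytoid dendritic cell relative of PU.1, and *Spic* (chromosome 10, 88674772 to 88685015), the relative found in red pulp macrophages, did not replace *Spi1* in these counts. *Spib* had 0, 0 and 1 counts in Hox-WT, 2, 0 and 0 in Hox-URE and 0 in each URE-AML library. *Spic* had 0 counts in all 9 libraries, which allows up to 0.104 to 0.153 CPM per library. Of 10 B and plasmacytoid dendritic cell genes linked to *Spib*, 6 were tested, and 1 was higher and 1 lower in Hox-URE than Hox-WT. URE-AML had 1 higher and 2 lower than Hox-WT. *Ebf1*, a regulator of early B cells, was at 42.5 CPM in Hox-WT and had 0, 3 and 1 counts in URE-AML (log2 -9.40 ± 0.33, SE, edgeR with adjusted p = 8.56e-09). *Cd79a*, a B cell receptor subunit, was the gene higher in Hox-URE, at 2.09 CPM against 0.178 CPM. *Tcf4*, which drives plasmacytoid dendritic cells, was at 77.3 CPM in URE-AML and 21.6 CPM in Hox-WT, a log2 fold change of 1.84 ± 0.10 (SE, edgeR with adjusted p = 1.16e-07). *Cd79b*, the partner of *Cd79a* in the B cell receptor, was the gene lower in Hox-URE, with 1 count against 216 in Hox-WT, and it was at 0 in URE-AML. *Pax5*, *Blk* and *Siglech* were at 0 or 1 count in all over both Hox-WT and URE-AML. Of 7 macrophage genes linked to *Spic*, 5 were tested. Hox-URE had 1 higher (*Hmox1*) and 2 lower (*Adgre1* and *Cd163*) than Hox-WT, where the *Hmox1* call was lost without Hox-URE library 1 (log2 0.54). In URE-AML 3 were higher and 2 lower than in Hox-WT. *Vcam1*, an adhesion molecule gene, had 24147 counts over the URE-AML libraries and 3 over those of Hox-WT, a ratio of pooled levels of 9740 (exact 95% interval of counting error 3330 to 47200). *Slc40a1*, the iron exporter ferroportin, was at 83.6 CPM in URE-AML and 0.13 CPM in Hox-WT, while *Cd5l* and *Treml4* of the same list were at 0 in URE-AML. *Adgre1*, which encodes the macrophage protein F4/80, was lower, at 3.73 CPM against 274 CPM, and so was the heme oxygenase gene *Hmox1*, at 7.98 CPM against 16.8 CPM. *Cd163*, a hemoglobin scavenger receptor gene, was called higher (log2 1.34, edgeR with adjusted p = 0.0356) from 47 counts against 22. That call was lost without any 1 of the Hox-WT libraries or without URE-AML library 1 or 2 (log2 1.09 to 1.54, edgeR with adjusted p = 0.0583 to 0.137).

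*Erg* and *Fli1* are close relatives whose genes each lie beside an *Ets* gene, *Erg* 116 kb from *Ets2* on chromosome 16 and *Fli1* 93.4 kb from *Ets1* on chromosome 9. In URE-AML *Erg* was lower and *Fli1* higher than in Hox-WT. *Erg* (chromosome 16, 95359169 to 95586593, minus strand) had 96.6, 134 and 122 CPM in Hox-WT, 70.4, 104 and 118 CPM in Hox-URE and 68.4, 80 and 77.2 CPM in URE-AML. Ranges of Hox-WT and URE-AML did not overlap, while those of both Hox lines did. Its log2 fold change of URE-AML over Hox-WT was -0.65 ± 0.18 (SE, edgeR with adjusted p = 0.0118). That call was lost without Hox-WT library 2 (log2 -0.55, edgeR with adjusted p = 0.0495) or without URE-AML library 1 (-0.58, edgeR with adjusted p = 0.0458), where the fold change was under 1.5. Against Hox-WT, Hox-URE gave -0.27 ± 0.18 (SE, edgeR with adjusted p = 0.236).

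*Fli1* (chromosome 9, 32422204 to 32542861, minus strand) had 38.9, 37 and 43.1 CPM in Hox-WT, 24.1, 30.5 and 35.5 CPM in Hox-URE and 65.8, 58.9 and 66.7 CPM in URE-AML. The 3 ranges were separate, in the order Hox-URE, Hox-WT, URE-AML. Log2 fold changes were 0.69 ± 0.14 (SE) in URE-AML against Hox-WT (edgeR with adjusted p = 0.0017) and 1.09 ± 0.14 (SE) against Hox-URE (edgeR with adjusted p = 8.93e-05). Hox-URE against Hox-WT gave -0.40 ± 0.14 (SE, edgeR with adjusted p = 0.0325), within the fold change threshold.

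ERG and FLI1 act in stem cells together with SCL (*Tal1*), LYL1, LMO2, GATA2 and RUNX1. Of 6 genes of that complex 4 were lower and 1 higher in URE-AML than in Hox-WT, and 2 were higher and 0 lower in Hox-URE, with medians of -0.65 and -0.01. *Gata2* was at 109 CPM in Hox-WT, 217 CPM for Hox-URE and 9.14 CPM for URE-AML, with log2 fold changes against Hox-WT of 0.99 ± 0.20 and -3.59 ± 0.23 (SE). *Lmo2* was at 276, 230 and 91.6 CPM in the same order, and its URE-AML value was lower than that of Hox-WT (log2 -1.59 ± 0.15, SE, edgeR with adjusted p = 7.33e-06). *Tal1* was higher in Hox-URE and lower in URE-AML than Hox-WT (0.77 ± 0.15 and -0.69 ± 0.15, SE). *Ldb1*, which encodes the protein that bridges the complex, was at the fold change threshold, with log2 -0.57 in Hox-URE (not called) and -0.61 in URE-AML (called lower). Its URE-AML call was lost without Hox-WT library 1 (-0.58) or URE-AML library 3 (-0.57), and it was called lower in Hox-URE without Hox-WT library 3 (-0.62) or Hox-URE library 1 or 2 (both -0.59). *Runx1* was at 22.9, 23 and 37 CPM in Hox-WT, then Hox-URE, then URE-AML. It was called higher in URE-AML than in Hox-WT at an edgeR adjusted p of 0.0495, which was lost in 6 of the 9 fits without 1 library, that is without Hox-WT library 1 (log2 0.54) or 3 (0.68), Hox-URE library 2 (0.68), or URE-AML library 1 (0.60), 2 (0.75) or 3 (0.73).

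Of 8 platelet genes that FLI1 is known to activate, 5 were tested, with 3 higher and 1 lower in Hox-URE than Hox-WT, and URE-AML had 1 higher and 4 lower. *Itga2b*, the integrin αIIb gene, was at 15.1, 29.8 and 40.3 CPM in Hox-URE, 1.91 to 2.64 CPM in Hox-WT and 0.0808 to 0.714 CPM in URE-AML. *Gp1ba*, a von Willebrand factor receptor subunit, was at 4.84, 12.4 and 15.6 CPM in Hox-URE and 0.562 to 1 CPM in Hox-WT. Both were thus highest in the line in which *Fli1* was lowest. *Pf4*, the platelet chemokine gene, went the other way, with 2.35 CPM in Hox-WT and 0.366 CPM in Hox-URE. *Gp9*, another subunit of that receptor, was called higher in Hox-URE (log2 2.12, edgeR with adjusted p = 0.0158), which was lost without Hox-WT library 1 (2.03, edgeR with adjusted p = 0.054) or 2 (edgeR with adjusted p = 0.0571) or without Hox-URE library 3 (1.41, edgeR with adjusted p = 0.0772).

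*Ets1* was the member with the largest positive difference in both comparisons with Hox-WT. It (ENSMUSG00000032035, chromosome 9, 32636221 to 32757820, plus strand) had 14, 15 and 13 counts in the Hox-WT libraries, 974, 795 and 398 in Hox-URE and 340, 674 and 909 in URE-AML. These were 0.45 to 0.536 CPM in Hox-WT, 35.5, 33 and 20.3 CPM in Hox-URE and 13.7, 32.1 and 39 CPM in URE-AML. Both lines with the deletion were above Hox-WT in every library and overlapped each other. Log2 fold changes against Hox-WT were 5.87 ± 0.46 (SE, edgeR with adjusted p = 3.9e-06) for Hox-URE and 5.80 ± 0.46 (SE, edgeR with adjusted p = 2.51e-06) for URE-AML. Between these lines the log2 fold change was -0.07 ± 0.33 (SE, edgeR with adjusted p = 0.876), an error too wide to say that the levels are alike. T and NK cell genes linked to ETS1 were mostly silent. Of 10 such genes 3 were tested, and *Cd3e*, *Cd3g*, *Cd2* and *Ncr1* were at 0 in all 3 lines. *Gata3*, a T cell and mast cell regulator, was at 12.8 CPM in Hox-URE and 0 in Hox-WT, at least 114-fold higher against a floor of 3 counts per library, and it was at 0 in URE-AML. *Lck*, a T cell kinase gene, was lower in URE-AML than Hox-WT, at 0.648 CPM against 5.39 CPM. *Tcf7*, which encodes the T cell factor TCF1, was lower than in Hox-WT in Hox-URE (log2 -1.83 ± 0.40, SE) and in URE-AML (-2.28 ± 0.41, SE).

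*Ets2* (chromosome 16, 95702075 to 95721051, plus strand), a target of growth factor signaling, was higher in the leukemic line only. It had 16.9, 20.6 and 18.5 CPM in Hox-WT, 17.7, 15.5 and 15.9 CPM in Hox-URE and 47.5, 47.5 and 42.4 CPM in URE-AML, so that both Hox lines overlapped and URE-AML was above them. Log2 fold changes of URE-AML were 1.29 ± 0.11 (SE, edgeR with adjusted p = 4.42e-06) against Hox-WT and 1.48 ± 0.11 (SE, edgeR with adjusted p = 1.98e-06) against Hox-URE, and Hox-URE against Hox-WT gave -0.19 ± 0.11 (SE, edgeR with adjusted p = 0.176). The neighboring pairs thus differed in unlike ways. *Ets2* was higher and its neighbor *Erg* lower in URE-AML than Hox-WT, while *Ets1* and its neighbor *Fli1* were both higher there. *Arhgap32*, the other tested gene within 250 kb of *Fli1*, was at 72.1, 31.4 and 0 CPM in Hox-WT, then Hox-URE, then URE-AML.

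*Elf1* and *Elf4* regulate lymphoid, endothelial and stem cell genes and share a domain architecture, but they differed in opposite directions in URE-AML. *Elf1* (chromosome 14, 79481194 to 79582494, plus strand) had 103, 129 and 118 CPM in Hox-WT, 101, 134 and 127 CPM in Hox-URE and 47.5, 52.1 and 39.6 CPM in URE-AML. Its log2 fold change was -1.33 ± 0.14 (SE, edgeR with adjusted p = 2.15e-05) for URE-AML against Hox-WT, -1.38 ± 0.14 (SE, edgeR with adjusted p = 1.81e-05) against Hox-URE, and 0.05 ± 0.14 (SE, edgeR with adjusted p = 0.789) between the Hox lines. The start of *Elf1* overlaps *Wbp4* on the other strand, and *Wbp4* had 15.7, 14.1 and 23.1 CPM in Hox-WT, then Hox-URE, then URE-AML. Whether the counting used strand is not given in the sources used here. *Elf4* (chromosome X, 48411046 to 48463132, minus strand), which keeps stem cells and T cells quiescent or dividing depending on the cell, had 74.4, 71.7 and 70.6 CPM in Hox-WT, 120, 104 and 109 CPM in Hox-URE and 118, 112 and 109 CPM in URE-AML. Every library of both lines with the deletion was above every Hox-WT library. Relative to Hox-WT its log2 fold change was 0.62 ± 0.08 (SE, edgeR with adjusted p = 0.000125) for Hox-URE and 0.64 ± 0.08 (SE, edgeR with adjusted p = 7.07e-05) for URE-AML, and it was 0.02 ± 0.08 (SE, edgeR with adjusted p = 0.829) between the lines with the deletion. Both are only just past the fold change threshold. That in Hox-URE went under it without Hox-URE library 1 (0.56, edgeR with adjusted p = 0.000226) and with library size as the only scaling (0.51).

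*Etv6* (chromosome 6, 134035700 to 134270158, plus strand) was not called in any comparison. It had 132, 145 and 138 CPM in Hox-WT, 114, 132 and 125 CPM in Hox-URE and 138, 154 and 134 CPM in URE-AML. The Hox-WT range overlapped those of both other lines, while Hox-URE and URE-AML did not overlap. Log2 fold changes were -0.16 ± 0.09 for Hox-URE and 0.04 ± 0.09 for URE-AML against Hox-WT, and 0.20 ± 0.09 between the lines with the deletion (SE, edgeR with adjusted p = 0.163, 0.719 and 0.0806).

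**Figure D2:**
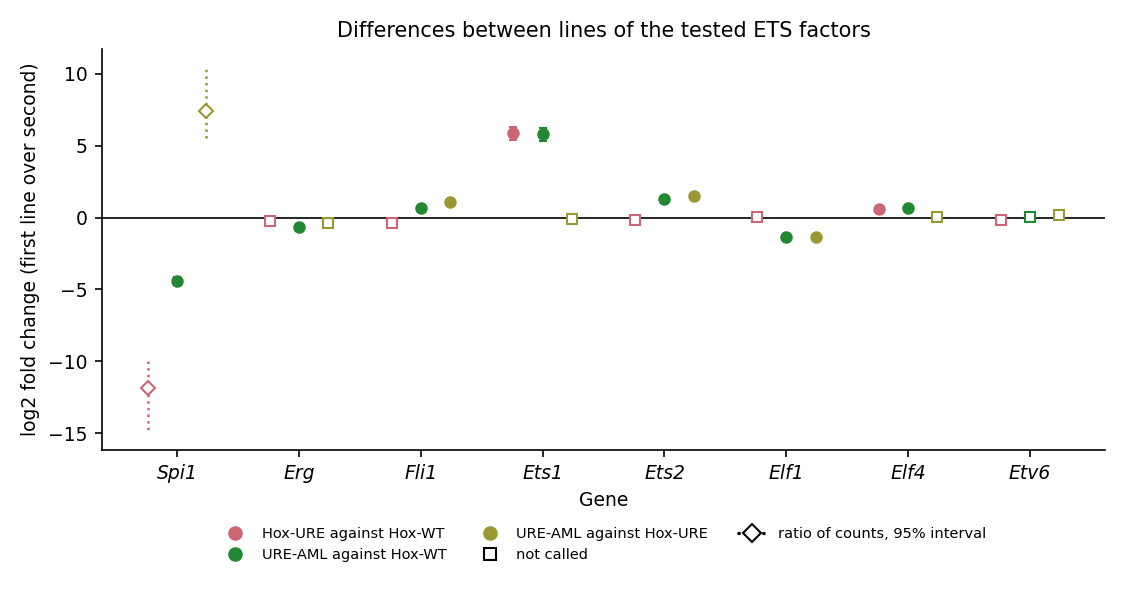
Log2 fold change (first line over second) of the 8 tested ETS genes in the 3 comparisons, with SE bars, filled circles where called and open squares where not. Open diamonds with dotted lines are log2 ratios of pooled counts with 95% counting intervals, used for *Spi1* where Hox-URE held 2 counts. *Spi1* lies far from 0 in all 3 comparisons and *Ets1* in both with Hox-WT but not between URE-AML and Hox-URE (-0.07), and every other gene lies between -1.38 and 1.48.

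Levels of different genes were compared per kilobase of exon, as CPM per kb. Over the 26 ETS family genes considered, the 10 and 16 others, *Spi1* stood first in Hox-WT with 38 ± 2.52 CPM per kb (SD, n = 3), overlapping *Erg* in the second position with 34 ± 5.56. *Etv6* followed with 23.1 ± 1.14, separate from *Erg* and from *Elf1*, with 17.3 ± 1.94. *Spi1* stood in position 18 in Hox-URE and in position 14 in URE-AML. *Erg* led in Hox-URE with 28.2 ± 7.09 CPM per kb, overlapping *Etv6* with 20.7 ± 1.46, which in turn overlapped *Elf4* and *Elf1*. In URE-AML *Elk3*, *Etv6* and *Erg* led with 23.9 ± 6.63, 23.8 ± 1.8 and 21.7 ± 1.75 CPM per kb, each overlapping the next, and *Elf4* and *Fli1* came next with 18.3 ± 0.71 and 18.3 ± 1.21. *Ets1* stood in position 17 in Hox-WT and 12 in both other lines. Using the longest transcript as length left *Spi1* at positions 1, 18 and 14 but moved *Ets1* to 11 in Hox-URE and 10 in URE-AML, and *Elf1*, *Elf4* and *Etv6* also exchanged places with their neighbors.

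*Spi1* alone made up 19.6% of the summed level per length of the 26 genes in Hox-WT, 0.00604% for Hox-URE and 1.17% for URE-AML. The differences against Hox-WT were -19.6 and -18.4 percentage points, and each had an exact two-sided permutation p of 0.1, the smallest that 3 against 3 libraries allow. *Ets1* made up 0.0306%, 2.17% and 2.2% in the same order. The ETS subfamily of *Ets1* and *Ets2* held 1.69 ± 0.138% in Hox-WT, 3.92 ± 0.893% for Hox-URE and 7.33 ± 1.11% for URE-AML (SD, n = 3). *Elf1* and *Elf4* together held 15 ± 0.638%, 22.2 ± 0.718% and 16.3 ± 0.103%, and *Erg* and *Fli1* together held 23.3 ± 2.58%, 22.5 ± 4.06% and 26 ± 2.4%, where the lines overlapped. The summed level itself was 194 ± 3.47 CPM per kb in Hox-WT, 162 ± 10.9 for Hox-URE and 154 ± 8.68 for URE-AML. Leaving out *Spi1* it was 156 ± 4.88, 162 ± 10.9 and 152 ± 9.3 CPM per kb, with overlapping ranges in the 3 lines.

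**Figure D3:**
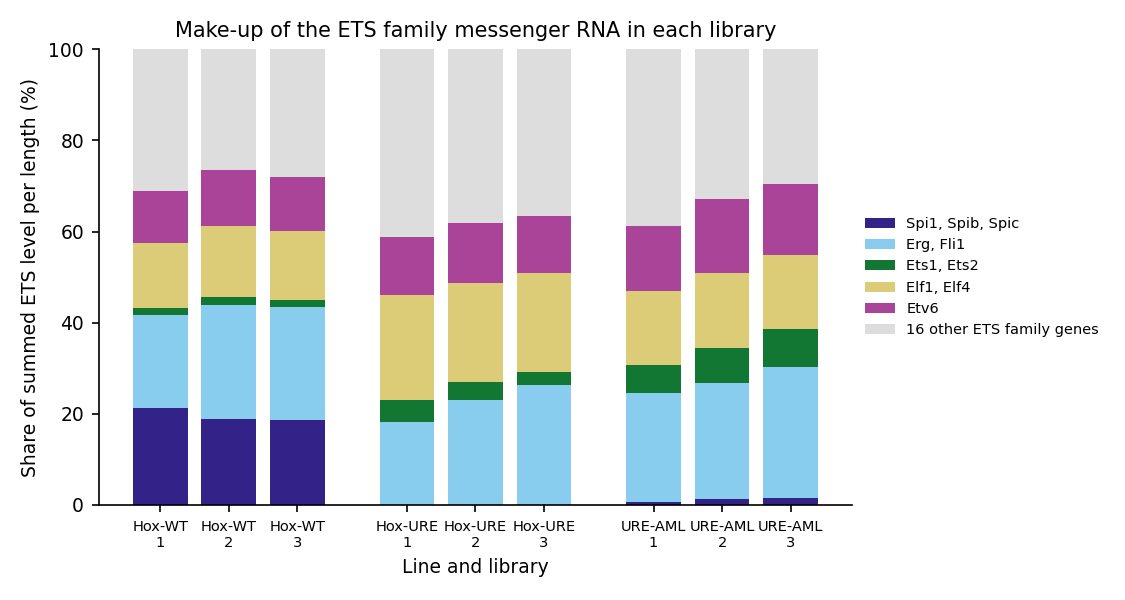
Stacked shares (percent) of the summed CPM per kb of 26 ETS family genes in each of the 9 libraries, by subfamily. The dark segment of *Spi1*, *Spib* and *Spic* averages 19.6% in Hox-WT, 0.0117% for Hox-URE and 1.17% for URE-AML, and that of *Ets1* and *Ets2* grows from 1.69% to 3.92% and 7.33%.

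The 16 other genes of the family were those of the ELK, ETV, ELF, GABP and related groups. Of these 10 were tested, and *Elf3*, *Ehf*, *Fev* and *Spdef*, genes of epithelia and neurons, were at 0 in all libraries. *Elf5* had 4, 1 and 0 counts in Hox-WT and 0 elsewhere, and *Etv2* had 1 count in 1 Hox-URE library. Hox-URE had 3 higher and 1 lower than Hox-WT, URE-AML had 3 higher and 4 lower than Hox-WT, and URE-AML had 2 higher and 3 lower than Hox-URE, with medians of 0.07, -0.16 and -0.26. *Elk1*, a partner of SRF downstream of MAP kinase, was at 1.61 to 1.99 CPM in Hox-WT, 14.1 to 17.4 CPM for Hox-URE and 6.74 to 9.23 CPM for URE-AML. Relative to Hox-WT its log2 fold change was 3.07 ± 0.19 (SE, edgeR with adjusted p = 6.73e-07) for Hox-URE and 2.15 ± 0.18 (SE, edgeR with adjusted p = 4.54e-06) for URE-AML. *Etv4* and *Etv5*, PEA3 group activators induced by growth factors, were highest in Hox-URE. *Etv5* had 36.3, 48.1 and 53.2 CPM there, 8.32 to 12.3 CPM in Hox-WT and 13.8 to 16.5 CPM in URE-AML, and *Etv4* had 31.6 to 37.3, 9.34 to 18 and 2.66 to 4.04 CPM in the same lines. Log2 fold changes in Hox-URE against Hox-WT were 2.14 ± 0.18 for *Etv5* and 1.42 ± 0.23 for *Etv4* (SE).

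*Etv1*, which completes the PEA3 group, was read in URE-AML only. It had 372, 265 and 218 counts in URE-AML and 0 in the 6 libraries of both Hox lines, a level at least 110-fold that of Hox-WT and at least 80.4-fold that of Hox-URE. *Erf*, a repressor held outside the nucleus by ERK, was at 49.6 to 59.6 CPM in Hox-WT, 15.7 to 21.5 CPM for Hox-URE and 11.7 to 19.9 CPM for URE-AML. Its log2 fold change was -1.59 ± 0.19 (SE, edgeR with adjusted p = 7.83e-05) for Hox-URE and -1.83 ± 0.20 (SE, edgeR with adjusted p = 2.19e-05) for URE-AML, both against Hox-WT. *Elk3*, a repressor regulated by RAS signaling, was called higher in URE-AML than in Hox-WT (log2 1.04 ± 0.18, SE, edgeR with adjusted p = 0.000583). Against Hox-URE it was called at 0.61 (edgeR with adjusted p = 0.0133), which fell under the fold change threshold without Hox-URE library 1 (0.53) or 3 (0.58) or URE-AML library 1 (0.38). *Etv3* was lower in URE-AML than Hox-WT (-0.67 ± 0.10, SE), and *Elf2* was at the threshold there (-0.59 ± 0.10, SE) and under it without Hox-WT library 3 (-0.55) or URE-AML library 3 (-0.51), and also with DESeq2 (-0.58). In all, its call was lost in 8 of 19 alternatives. *Gabpa*, which drives housekeeping and mitochondrial genes, and *Elk4* were not called in any comparison.

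**Figure D4:**
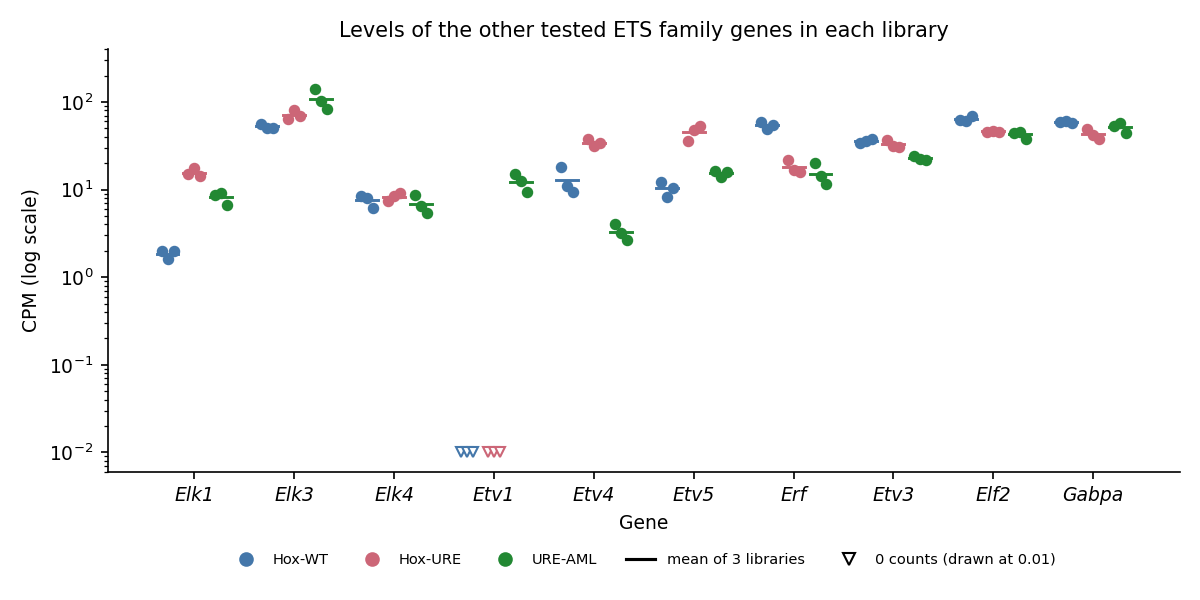
CPM on a log axis of the 10 tested other ETS family genes in each library (points, colored by line), with bars at the mean of 3 libraries and open triangles at 0.01 for 0 counts. *Etv1* appears in URE-AML only, *Elk1*, *Etv4* and *Etv5* are highest in Hox-URE, and *Erf* is highest in Hox-WT.

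Genes linked to PU.1 as targets were followed in a list of 28, of which 25 were tested. Whether each of them needs PU.1 in these cells was not tested. In Hox-URE against Hox-WT 0 were higher and 18 lower, with a median log2 fold change of -3.16, or -2.38 with genes at 0 counts set to their bound. In URE-AML against Hox-WT 7 were higher and 15 lower (median -1.37), and in URE-AML against Hox-URE 17 were higher and 4 lower (median 2.33). Over all genes the shares higher and lower were 21.3% and 15.9%, 23% and 20.2%, and 20.3% and 22.4% in that order. Leaving out 1 library gave 15 to 19 called in Hox-URE, and 4687 to 5235 over all genes. *Btk*, a B cell and myeloid kinase gene, lost its call without any 1 Hox-WT library or Hox-URE library 2 (log2 -1.82 to -1.75). *Cd68* lost it without any 1 Hox-WT library (-1.13 to -1.08) and *Tlr4* without Hox-WT library 1 or 2 or Hox-URE library 2 (-0.95 to -0.87). *Itgb2* was called higher in Hox-URE without Hox-URE library 1 (0.65), and *Bcl6* without Hox-WT library 3 (1.61) or Hox-URE library 2 (1.34). *Lyz2*, the lysozyme gene, was called lower there without Hox-WT library 1 (-1.72) or Hox-URE library 3 (-1.79). The list shares *Mpo*, *Elane*, *Flt3* and *Csf1r* with the marker lists of progenitors and monocytes. Its genes fell into unlike patterns. *Fcgr2b*, an inhibitory Fc receptor, followed the order of *Spi1*, at 67.7 CPM in Hox-WT, 16.8 CPM in URE-AML and 3 counts in all in Hox-URE, where the ratio of pooled levels to Hox-WT was 1600 (exact 95% interval of counting error 548 to 7780). *Mpo*, the neutrophil myeloperoxidase, also kept that order, with 3292, 5950 and 5884 CPM in Hox-WT, 10.2, 2.82 and 2.15 CPM in Hox-URE and 192, 212 and 173 CPM in URE-AML. *Csf2ra* and *Csf3r*, receptor genes for GM-CSF and G-CSF, were also lowest in Hox-URE, at 4.72 and 3.07 CPM, against 21 and 27.5 CPM in Hox-WT and 9.23 and 12 CPM in URE-AML. *Tyrobp* kept the order too, at 23.7 CPM in Hox-WT, 0.512 CPM in URE-AML and 0.0121 CPM in Hox-URE.

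The genes of the list described next did not follow that order or were too low to be placed in it. *Flt3*, a cytokine receptor gene, had 108 CPM in Hox-WT, 14.2 CPM for Hox-URE and 0 counts for URE-AML, a drop from Hox-WT of at least 758-fold. *Csf1r*, the M-CSF receptor gene, was too low in both lines with the deletion to order them, at 0.783 CPM in Hox-WT, 0 in Hox-URE, at least 5.11-fold lower, and at 1 count over the URE-AML libraries. *Elane*, neutrophil elastase, had 112, 234 and 196 CPM in Hox-WT, 8.28 to 10.7 CPM in Hox-URE and 4290, 7128 and 10510 CPM in URE-AML, a log2 fold change of 5.34 ± 0.39 (SE, edgeR with adjusted p = 1.29e-06) for URE-AML against Hox-WT. *Ncf1*, *Itgb2* and *Bcl6* were also higher in URE-AML than in Hox-WT, by log2 fold changes of 1.90 ± 0.10, 2.87 ± 0.21 and 4.10 ± 0.41 (SE). *Fcgr3* was at 141, 132 and 115 CPM in Hox-WT, then Hox-URE, then URE-AML and was not called in any comparison. The genes higher in URE-AML stood beside the mature neutrophil markers given above, 7 of which were higher and 0 lower there than in Hox-WT among 8 tested. *S100a8* had 2791 CPM in URE-AML and 38.4 CPM in Hox-WT.

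**Figure D5:**
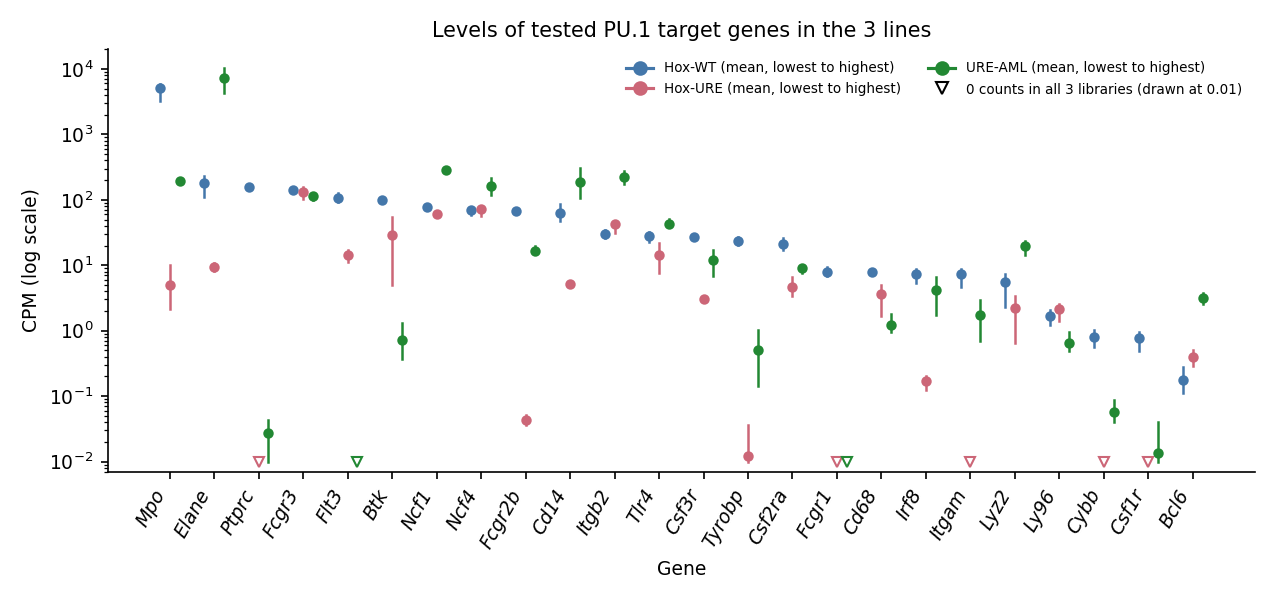
CPM on a log axis of tested PU.1 target genes, ordered by their mean in Hox-WT, with points at the mean and lines from the lowest to the highest library of each line. Open triangles at 0.01 mark 0 counts in all 3 libraries, and a line that reaches 0.01 has a library at 0. Hox-URE lies lowest for most genes, with 18 of the 25 tested called lower than in Hox-WT and 0 higher, and *Elane* stands highest in URE-AML.

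Factors that work with or against PU.1 were divided. Of 14, all tested, 4 were higher and 6 lower in Hox-URE than Hox-WT, and URE-AML had 5 higher and 4 lower than Hox-WT. The 4 higher in Hox-URE were *Cebpb*, *Jun*, *Gata2* and *Zfpm1*. *Cebpb*, a regulator of emergency granulopoiesis, lost that call without Hox-WT library 2 (log2 0.82) or 3 (0.94) or Hox-URE library 3 (0.80), and *Zfpm1* without Hox-URE library 2 (0.58) or 3 (0.50). Without Hox-URE library 3 the higher ones were thus *Jun* and *Gata2* only. *Gfi1*, a repressor needed for neutrophils, lost its lower call without Hox-URE library 2 (-0.56). *Cebpa*, the granulocyte regulator, was at 305, 338 and 389 CPM in Hox-WT, then Hox-URE, then URE-AML and was not called. *Cebpe*, which completes neutrophil maturation, was at 53.6, 6.23 and 284 CPM, with log2 fold changes against Hox-WT of -3.11 ± 0.20 and 2.40 ± 0.18 (SE). *Irf8*, the partner of PU.1 in monocytes, was at 7.44, 0.17 and 4.16 CPM, lower in Hox-URE than Hox-WT (log2 -5.42 ± 0.56, SE, edgeR with adjusted p = 2.64e-05). In URE-AML it was not called against Hox-WT (log2 -0.84), but it was called lower without URE-AML library 1 (-1.36, edgeR with adjusted p = 0.0146). *Irf4* was at 0 in both Hox lines and 7.56 CPM in URE-AML, at least 67.2-fold above Hox-WT. *Jun*, a coactivator of PU.1, was at 4.53, 8.08 and 16.6 CPM and was called higher than in Hox-WT in both lines with the deletion. *Zfpm1* (FOG1) was at 71.7, 111 and 3.29 CPM, and its log2 fold change of URE-AML over Hox-WT was -4.44 ± 0.18 (SE, edgeR with adjusted p = 1.9e-08). *Myb* was lower in both lines with the deletion, at 167 and 177 CPM against 299 CPM.

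The likeness of other genes to each member was described by Pearson's r of log2 CPM over the 9 libraries. These form 3 groups of 3, so r mostly reflects the order of the lines and carries no p. The tested genes most like *Spi1* were *Klhl22* (r = 0.994), *Cdt1* (0.993), *Bmi1* (0.992), *Slc25a45* (0.991) and *Tiam1* (0.99). *Tiam1*, an activator of RAC, had 135 CPM in Hox-WT, 2.86 CPM for Hox-URE and 26.1 CPM for URE-AML, and *Bmi1*, a Polycomb gene of stem cells, had 108, 26.4 and 57.6 CPM. *Cdt1*, a replication licensing factor, had the same order over a narrow range of 100, 60 and 80.3 CPM. For *Ets1* the closest were *Sun2*, *Stom* and *Tmc6* (r = 0.993 to 0.994), for *Elf4* *Zfp697*, *Tgm2* and *Angel1* (0.992 to 0.993), and for *Ets2* *Gm18119*, *Colec12* and *Kif17* (0.993 to 0.994). *Tgm2*, a transglutaminase gene, had 1.39 CPM in Hox-WT, 1004 CPM for Hox-URE and 1336 CPM for URE-AML. *Elf1* was closest to *Gm43558*, *Ptger4* and *Homer3* (0.992 to 0.994), *Fli1* to *Morn2*, *Ppwd1* and *Gm5292* (0.983 to 0.993), *Erg* to *Per3*, *Slc25a1* and *Akr1b10* (0.967 to 0.97), and *Etv6* to *Dnajc13*, *Gm37758* and *Cep57* (0.955 to 0.974).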

How the data were processed

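Per the labels and the study's methods, poly-A RNA of each line was sequenced from stranded libraries. The authors quantified reads with Salmon against the mouse genome release GRCm38 and summed them to genes, and the deposited table holds expected counts of each gene, all of them whole numbers and without scaling for depth. Whether they were scaled for transcript length is not given in the sources used here, which bears on every CPM per kb value and share. Gene positions and lengths came from GENCODE M21 (GRCm38), and promoter windows from RefSeq. All 9 columns were assigned to lines by their names. The quasi-likelihood test of edgeR 4.0.16 (R 4.3.3) took every library in 1 fit, with line as its factor, TMM factors and filterByExpr at a minimum count of 10, with Benjamini-Hochberg adjustment over the 13082 genes tested. SE is the absolute log2 fold change over the square root of F. Log2 CPM for likeness used a prior count of 0.5. Members, lists and tests were chosen with earlier results of these data known. Genes to name were every ETS family gene, up to 4 called genes of smallest p per other list and direction against Hox-WT, the genes *Csf1r*, *Csf2ra*, *Csf3r*, *Flt3*, *Runx1*, *Cebpa*, *Gata2* and *Irf8*, genes within 250 kb, and the 5 (*Spi1*) or 3 genes most alike. Not all of these are described. *Fcgr3*, *Btk*, *Cd68*, *Tlr4* and other genes given at 0, as not called or for a lost call were named after their values were seen. The code was tested on simulated data. Alternatives were other scalings, filters, DESeq2 1.42.0, thresholds, a replicate block and leaving out each library. Protein sequences were not analysed here, and a few listed genes are counted but not reported singly or plotted here. Figures used matplotlib 3.10.9.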

Additional observations from a re-analysis of the deposited data

How the results depend on the processing

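Over 453 alternatives of the members' log2 fold changes, 434 kept direction and side of the threshold, 8 lost the call and 1 gained it. The other 10 changed sign, with neither value called. With library size as the only scaling these were *Elf1* in Hox-URE against Hox-WT (-0.059) and *Ets1* in URE-AML against Hox-URE (0.034). Leaving out 1 library gave -0.041 to 0.155 for that *Elf1* value (below 0 without Hox-WT library 1, -0.034, or Hox-URE library 2), -0.02 to 0.083 for *Etv6* in URE-AML against Hox-WT (below 0 without URE-AML library 2), -0.373 to 0.264 for that *Ets1* value (above 0 without Hox-URE library 1, 0.078, or 2, 0.015, or URE-AML library 1), and -0.02 to 0.077 for *Elf4* in URE-AML against Hox-URE (below 0 without Hox-URE library 2 or URE-AML library 1, -0.006). Losses were *Elf4* in Hox-URE (with library size as the only scaling, when tested against 1.5-fold and without Hox-URE library 1), and *Fli1*, *Elf4* and *Erg* in URE-AML in the test against 1.5, and *Erg* without Hox-WT library 2 or URE-AML library 1. *Fli1* in Hox-URE against Hox-WT was gained with no fold change threshold. With the test against 1.5, 4 members were called in URE-AML against Hox-WT in place of 7, and 4287 genes in all in place of 5648. With at least 10 counts in every library, fewer genes were tested and 8, 12 and 13 PU.1 target genes were called in place of 18, 22 and 21, and 3200, 3602 and 3553 genes in all in place of 4873, 5648 and 5591. The share of *Spi1* in Hox-WT was 21.6% with longest transcripts and 27.5% over the 10 members alone, and in URE-AML it was 1.73% over the members. Library size as the only scaling shifted the median gene by -0.107 in Hox-URE against Hox-WT and by 0.111 in URE-AML against Hox-URE, and turned the balance of all calls to 2502 higher and 2545 lower (from 2789 and 2084) and to 3166 higher and 2605 lower (from 2662 and 2929). Same-numbered libraries of different lines correlated in their deviations by 0.01 to 0.271, not over 0.1 in every pair, and each correlated best with its own number in 9 of 9 pairs, as a hint from the data only. With the replicate number as a block, 3, 7 and 4 members, 4, 7 and 5 other ETS genes and 19, 22 and 20 PU.1 targets were called. Over all genes 4908, 5679 and 5584 were called in those fits. Depth limits *Spi1* in Hox-URE, with 2 counts, and *Spib* and *Spic*.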
